A study of Mus musculus with 11 samples.

Results

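Glycolysis enzymes and genes of the hypoxia response were followed in 11 mouse stomach samples, each hybridised to 1 Affymetrix expression array. The set was a list of 36 genes fixed by name, from glucose transporters to targets of the hypoxia-inducible factors (HIF). A gene was used where a probe set carried its symbol alone, and of several such probe sets the brightest over the 11 arrays stood for the gene. This left 33 members of 19938 genes in all. Gapdh appeared only on probe sets that carry several symbols, and Gpi1 and Eno1 had no probe set of their own symbol, so these 3 were not analysed here. The members fall into 18 glycolysis genes (uptake, enzymes, lactate export and the pyruvate switch) and 15 hypoxia genes.

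The normal group, NGE, held 4 samples of normal gastric epithelium from mice that lacked the Cre transgene (labelled Pdx1-1-Cre-negative). The tumour groups were labelled diffuse-type gastric cancer. In pChePS_GC (4 samples) the mice carried the Pdx-1-Cre transgene with 1 floxed and 1 wild-type allele of Cdh1 (Cdh1F/+) and with both alleles floxed of Smad4 (Smad4F/F) and of Trp53 (Trp53F/F). In pCP_GC (3 samples) they carried it with Cdh1F/F and Trp53F/F. Floxed Trp53 and the Cre transgene were thus common to both tumour groups, and the groups differ in Smad4 and in the number of floxed Cdh1 alleles together, which cannot be told apart. The Pdx1 promoter drives Cre in the pancreas, duodenum and antral stomach. None of the groups was treated, the labels give no age, and nothing in them ties each sample to a mouse of its own. A p-value here therefore speaks of the spread among these arrays, which may be technical.

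Glycolysis turns glucose into pyruvate in the cytosol, and lactate dehydrogenase and a lactate exporter carry the product away when it does not enter mitochondria. Cells short of oxygen stop hydroxylating HIF alpha subunits, which then escape degradation through the VHL protein, bind DNA at the core letters ACGTG or GCGTG and raise transcription of transporters, glycolytic enzymes, angiogenic factors and regulators of mitochondria. Because HIF is controlled mainly at the protein level, the mRNA of its targets is more often used as a readout than that of Hif1a itself. Many tumours also run glycolysis in the presence of oxygen.

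Values are normalized log2 signals, so that a difference of 1 is a doubling. The median over genes lay between 8.10 and 8.44 in the 11 arrays. The floxed gene Cdh1 had values of 12.93 to 13.02 in NGE, 8.73 to 11.07 in pChePS_GC and 10.52 to 12.02 in pCP_GC, and Smad4 had 11.05 to 11.16, 10.17 to 11.02 and 11.41 to 11.49, and where these probe sets lie relative to the floxed exons was not tested. Xist read 11.54 to 12.66 in NGE and 5.57 to 6.02 in tumours, and the Y-linked Eif2s3y 4.94 to 5.19 in NGE and 8.08 to 11.09 in tumours. By these genes every NGE array read as female and every tumour array as male. Sex and tumour therefore cannot be told apart in any comparison against NGE, while both tumour groups read alike. Parietal cell markers summed to 15.60 to 15.77 (log2 of the summed signal of 5 genes) in NGE, 9.80 to 11.03 in pChePS_GC and 9.56 to 12.89 in pCP_GC. Macrophage markers (5 genes) summed to 9.76 to 10.11, 13.35 to 14.01 and 13.19 to 14.21, and those of pan-epithelial cells (4 genes) to 15.28 to 15.36, 15.36 to 15.47 and 15.06 to 15.50. In whole tissue, fewer cells of a type and less RNA per cell cannot be told apart, and the region of stomach sampled is not in the titles. Centring each array on its median moved the median of all genes by -0.17 (pChePS_GC against NGE), -0.21 (pCP_GC against NGE) and 0.04 (between tumour groups), and changes against NGE are to be read relative to those shifts. As a level of background, 95% of 1194 genes for receptors of the nose (olfactory and vomeronasal) lay under 7.24 in NGE, 6.99 in pChePS_GC and 6.86 in pCP_GC. Of the members only Slc2a3 had a group mean under it (in NGE).

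The HIF core letters were looked up in the promoters of the members, since these genes are grouped by that control. RefSeq windows (GRCm38.p6) from 250 bases before to 50 after a gene start were on hand for 31 of the 33 members. ACGTG or GCGTG on either strand (CACGT and CACGC on the other strand, overlapping matches counted as 1 site, and the E-box CACGTG thus included) occurred in 37 of 47 member windows (78.7%), against 43.8% of all 32851 windows. Member windows had a median of 21 CG steps against 7 in all windows, and the motifs contain CG. Among windows with at least 21 CG steps the share was 91.7% for members and 74.0% for all. A match is a description of letters and not a measured binding site. Shown here, with matches in capitals, are the promoter of the only member that passed between tumour genotypes (Hk2, chr6:82774405-82774704, minus strand), the member with the largest gap between them (Bnip3, chr7:138909457-138909756, minus strand), 2 further members whose tumour arrays did not overlap (Slc16a3, chr11:120948817-120949116, plus strand, and Aldoc, chr11:78322823-78323122, plus strand), the member that fell most against NGE (Car9, chr4:43506776-43507075, plus strand), and a bright member that passed no test (Ldha, chr7:46845554-46845853, plus strand).
Hk2: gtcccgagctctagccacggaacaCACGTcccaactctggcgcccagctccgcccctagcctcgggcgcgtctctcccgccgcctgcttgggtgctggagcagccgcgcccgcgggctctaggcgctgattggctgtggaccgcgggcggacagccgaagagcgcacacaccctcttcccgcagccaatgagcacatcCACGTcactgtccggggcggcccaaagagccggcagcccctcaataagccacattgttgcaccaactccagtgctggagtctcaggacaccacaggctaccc
Bnip3: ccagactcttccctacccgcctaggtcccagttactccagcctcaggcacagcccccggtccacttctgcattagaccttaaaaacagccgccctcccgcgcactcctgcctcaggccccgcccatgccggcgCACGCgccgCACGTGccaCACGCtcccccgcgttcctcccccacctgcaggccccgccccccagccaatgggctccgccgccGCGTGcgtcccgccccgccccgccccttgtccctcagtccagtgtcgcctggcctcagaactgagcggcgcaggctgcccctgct
Slc16a3: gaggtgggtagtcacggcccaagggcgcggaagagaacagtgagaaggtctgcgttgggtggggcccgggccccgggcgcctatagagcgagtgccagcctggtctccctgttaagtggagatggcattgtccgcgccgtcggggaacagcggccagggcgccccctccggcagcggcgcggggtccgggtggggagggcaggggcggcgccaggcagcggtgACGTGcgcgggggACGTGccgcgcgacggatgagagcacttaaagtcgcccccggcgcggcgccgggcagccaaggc
Aldoc: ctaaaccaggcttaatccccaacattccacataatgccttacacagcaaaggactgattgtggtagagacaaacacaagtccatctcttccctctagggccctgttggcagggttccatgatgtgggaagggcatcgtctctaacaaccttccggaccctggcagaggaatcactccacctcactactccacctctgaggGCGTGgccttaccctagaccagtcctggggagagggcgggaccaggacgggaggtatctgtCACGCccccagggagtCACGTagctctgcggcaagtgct
Car9: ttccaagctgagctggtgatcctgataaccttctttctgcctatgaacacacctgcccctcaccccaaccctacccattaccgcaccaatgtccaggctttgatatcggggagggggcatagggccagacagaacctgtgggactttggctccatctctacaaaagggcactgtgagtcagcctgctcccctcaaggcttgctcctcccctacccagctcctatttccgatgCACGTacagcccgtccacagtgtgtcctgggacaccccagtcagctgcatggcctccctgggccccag
Ldha: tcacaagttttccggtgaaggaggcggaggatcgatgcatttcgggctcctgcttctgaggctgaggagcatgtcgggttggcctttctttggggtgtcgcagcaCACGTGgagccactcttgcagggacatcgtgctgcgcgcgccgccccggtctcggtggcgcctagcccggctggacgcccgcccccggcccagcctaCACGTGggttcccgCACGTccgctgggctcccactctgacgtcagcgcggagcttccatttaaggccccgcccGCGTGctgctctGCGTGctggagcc
Hk2 held 2 sites, at 226 and 52 bases before the start, and Slc16a3 held 2 copies of ACGTG at 27 and 14 bases before it. Bnip3 had 4 sites, among them CACGTG at 108 bases before the start, and Aldoc had 3. The Car9 window held 1 site, 18 bases before the start, and that of Ldha held 5. Of all 31 members with a window, Tpi1 alone had no match.

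Against NGE the members moved in opposite balance in the 2 tumour groups. In pChePS_GC 11 of 33 rose and 3 fell, where 18.7% of all genes rose and 23.4% fell (limma, adjusted p under 0.05). In pCP_GC 3 rose and 11 fell, where 20.0% of all genes rose and 31.8% fell. As shares of the 33 members, 33.3% rose and 9.09% fell in pChePS_GC and 9.09% rose and 33.3% fell in pCP_GC, so the share rising in pChePS_GC lay above its background and the share falling in pCP_GC was near it. Of the 18 glycolysis genes 9 rose and 0 fell in pChePS_GC, and of the 15 hypoxia genes 2 rose and 3 fell, a difference between the lists that was not tested. With arrays centred on their medians the split was 8 higher and 4 lower in pChePS_GC and 1 higher and 14 lower in pCP_GC, and with quantile normalization it was 10 and 3, and 1 and 11. Over all genes, centring gave 2695 higher and 9101 lower in pChePS_GC, against 3728 and 4658 as deposited, and 2686 and 9716 in pCP_GC, against 3994 and 6343. The median difference of the members was 0.28 in pChePS_GC and -0.22 in pCP_GC, beside -0.10 and -0.12 for all genes. Both comparisons use the same 4 NGE arrays, so their values are given side by side below, and the direct comparison of genotypes follows.

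**Figure D1:**
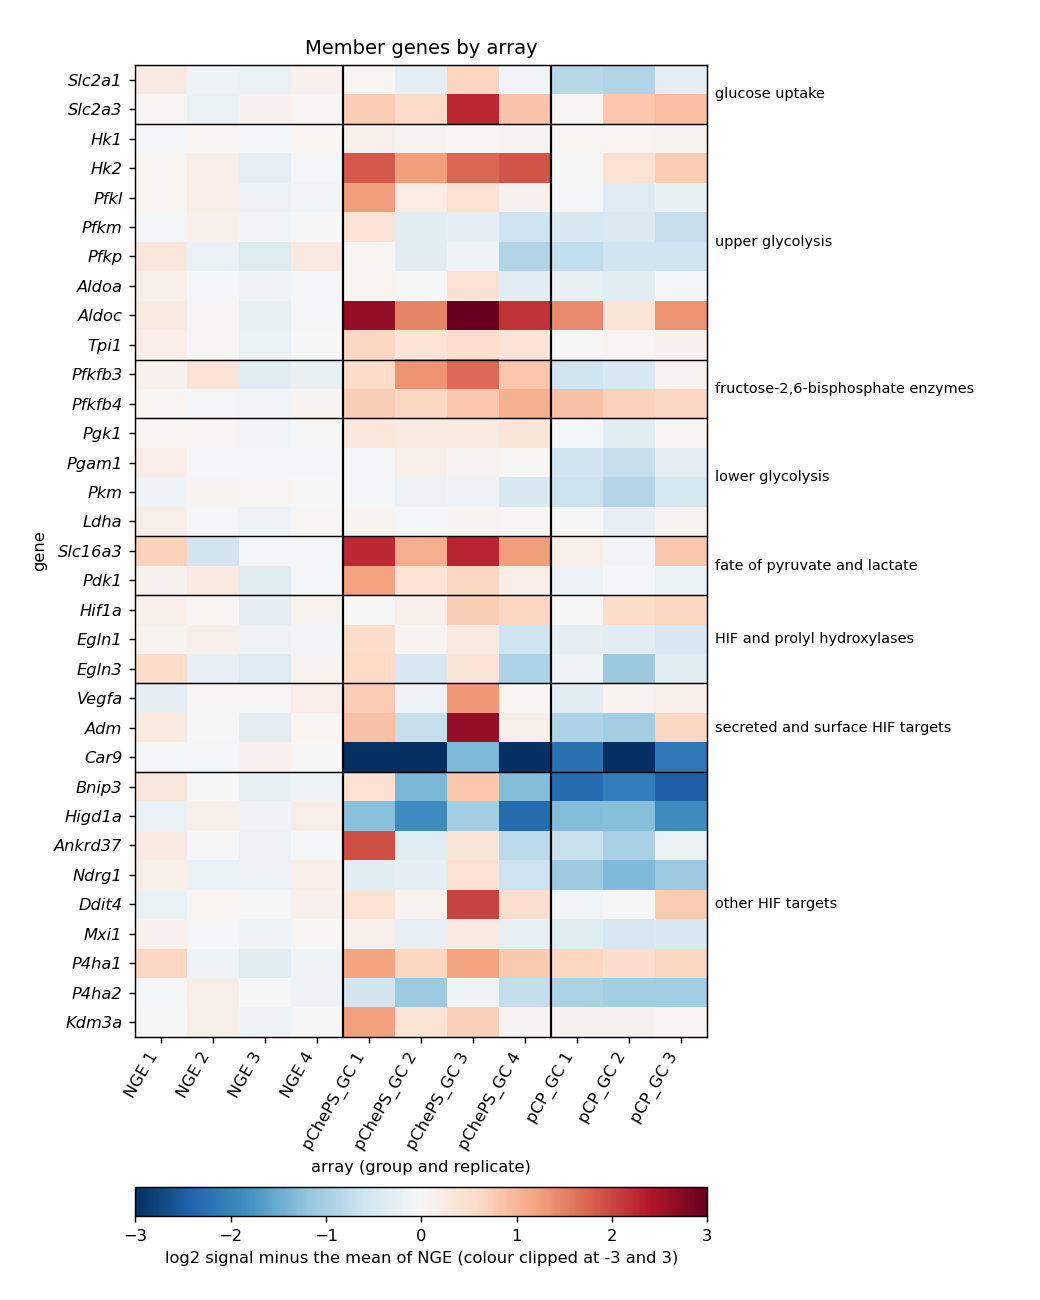
Each cell is the log2 signal of a member gene (rows, grouped by role) in an array (columns) minus the mean of the 4 NGE arrays, with red above and blue below that mean. Red cells for Hk2, Aldoc and Slc16a3 fill the pChePS_GC columns, and Car9 and Higd1a are blue in all 7 tumour arrays.

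Glucose uptake was represented by 2 transporters. Slc2a1, the widespread basal glucose transporter, read 12.63, 12.21, 12.16 and 12.50 in NGE, then 12.43, 12.09, 13.01 and 12.29 in pChePS_GC, with 11.53, 11.46 and 12.08 in pCP_GC. Every pCP_GC array lay under every array of both other groups, the closest being 12.08 against 12.09. Its fall in pCP_GC passed (log2 difference -0.68, SE 0.22, adjusted p = 0.0264), and its difference in pChePS_GC was 0.08 (adjusted p = 0.767). The fall was not called without NGE replicate 1 or 4 (adjusted p = 0.069 and 0.0625) or without pCP_GC replicate 1 or 2 (0.0869 and 0.0979), and over all alternatives ran from 0.0027 to 0.0979. Slc2a3, the high-affinity transporter of neurons and leukocytes, read 7.28, 7.04, 7.36 and 7.28 in NGE, then 8.0, 7.82, 9.50 and 8.10 in pChePS_GC, with 7.30, 8.05 and 8.14 in pCP_GC. It rose by 1.12 in pChePS_GC (SE 0.33, adjusted p = 0.021), with replicate 3 alone above 9, and without that array by 0.73 (adjusted p = 0.013, range over the alternatives 0.0124 to 0.0461). Its difference in pCP_GC was 0.59 (adjusted p = 0.184). It passed without pChePS_GC replicate 3, which enters through the shared spread (0.0239), and with only NGE and pCP_GC fitted (0.0319), in a range up to 0.403. The NGE mean of Slc2a3 lay at the receptor level of 7.24. Of 5 neutrophil markers 4 rose and 1 fell in each tumour group, and the summed level was 9.42 to 9.58 in NGE, 11.64 to 12.34 in pChePS_GC and 10.46 to 11.71 in pCP_GC, with S100a8 and Cxcr2 under the receptor level in NGE. The part of leukocytes in the Slc2a3 level was not tested.

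In the first steps of glycolysis the isozymes of hexokinase and aldolase parted. Hk1, the constitutive hexokinase that traps glucose as its phosphate, moved little, at 13.13 to 13.23 in NGE, 13.25 to 13.33 in pChePS_GC (difference 0.10, adjusted p = 0.233, though the arrays did not overlap) and 13.23 to 13.29 in pCP_GC. A second probe set of Hk1, which was not used, read lower in pCP_GC (10.71) than in NGE (11.26), and the mean of both reversed the sign of the pCP_GC difference, from 0.08 (adjusted p = 0.39) to -0.24 (adjusted p = 0.0363). Hk2, the inducible hexokinase of muscle, fat and many tumours, read 9.33, 9.46, 9.03 and 9.24 in NGE, then 11.10, 10.53, 11 and 11.15 in pChePS_GC, with 9.27, 9.72 and 10.03 in pCP_GC. All 4 pChePS_GC arrays stood above every other array, and pCP_GC overlapped NGE. Hk2 rose 3.21-fold in pChePS_GC (log2 difference 1.68, SE 0.18, adjusted p = 5.84e-05), and its difference in pCP_GC was 0.41 (SE 0.20, adjusted p = 0.103), which passed without pCP_GC replicate 1 (0.0271, range over the alternatives 0.0271 to 0.608).

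Phosphofructokinase commits sugar to glycolysis, and none of its 3 subunit genes passed as higher in either tumour group, though Pfkl came near in pChePS_GC. Pfkl, the liver-type subunit, read 10.72 to 11.10 in NGE, 11.03 to 12.16 in pChePS_GC and 10.52 to 10.83 in pCP_GC. Its difference in pChePS_GC was 0.52 (adjusted p = 0.0717), called without pChePS_GC replicate 4 (0.0372) and with array weights (0.0266), in a range up to 0.216. Pfkm, the muscle-type subunit, fell by 0.52 in pCP_GC (9.30 to 9.54 against 9.89 to 10.13, adjusted p = 0.0418), a call lost without any of the 4 NGE arrays, any of the 3 pCP_GC arrays or pChePS_GC replicate 2 (adjusted p 0.0503 to 0.128, range over all alternatives 0.00369 to 0.128). In pChePS_GC the Pfkm difference was -0.22 (adjusted p = 0.335), and it was called lower without replicate 1 of that group (0.0178, range 0.0178 to 0.703). Pfkp, the platelet-type subunit, fell by 0.64 in pCP_GC (9.54 to 9.71 against 9.88 to 10.64, adjusted p = 0.0383), not called without NGE replicate 1 or 4 or any pCP_GC array (0.072 to 0.105) or with the replicate number as a block (0.0559), in a range from 0.00253.

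The aldolases split the sugar bisphosphate into trioses. Aldoa, the main form, read 13.01 to 13.28 in NGE, 12.80 to 13.55 in pChePS_GC and 12.78 to 13.06 in pCP_GC, with no call in either comparison. Aldoc, the form best known from brain, read 8.58, 8.36, 8.10 and 8.25 in NGE, then 10.96, 9.80, 11.39 and 10.49 in pChePS_GC, with 9.73, 8.68 and 9.66 in pCP_GC. The 3 groups did not overlap at all, with pChePS_GC highest and NGE lowest. It rose 5.05-fold in pChePS_GC (log2 difference 2.34, SE 0.33, adjusted p = 0.000318), the most of any member, and 2.05-fold in pCP_GC (1.03, SE 0.35, adjusted p = 0.0299). The pCP_GC call was lost without NGE replicates 2, 3 or 4 or pCP_GC replicates 1 or 3 (adjusted p 0.0521 to 0.108) and with arrays centred (0.0716) or quantile-normalized (0.14), in a range from 0.000863. Tpi1, which interconverts the triose phosphates, rose by 0.47 in pChePS_GC (12.86 to 13.10 against 12.27 to 12.68, adjusted p = 0.0041), and its difference in pCP_GC was 0.07 (adjusted p = 0.613).

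The bifunctional PFKFB enzymes set the level of the fructose bisphosphate that switches phosphofructokinase on, and their 2 genes followed different patterns. Pfkfb3, the form with the strongest kinase activity, read 9.26, 9.52, 8.82 and 8.90 in NGE, then 9.69, 10.48, 10.84 and 9.95 in pChePS_GC, with 8.54, 8.67 and 9.23 in pCP_GC. It rose 2.16-fold in pChePS_GC (log2 difference 1.11, SE 0.26, adjusted p = 0.00709), where no array overlapped NGE, and its difference in pCP_GC was -0.31 (SE 0.28, adjusted p = 0.371). Pfkfb4, known as an induced form in hypoxic cells, read 7.96, 7.82, 7.80 and 7.98 in NGE, then 8.62, 8.51, 8.71 and 8.95 in pChePS_GC, with 8.77, 8.58 and 8.51 in pCP_GC. The 2 tumour groups shared a range well clear of NGE. It rose by 0.81 in pChePS_GC (SE 0.11, adjusted p = 0.000221) and by 0.73 in pCP_GC (SE 0.12, adjusted p = 0.0007), the only member besides Aldoc and P4ha1 to rise in both.

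Among the enzymes of the later steps, which harvest ATP, changes were small. Pgk1, the first ATP-yielding kinase, rose by 0.30 in pChePS_GC (12.71 to 12.79 against 12.35 to 12.48 in NGE, adjusted p = 0.0212). This was not called without NGE replicate 3 (0.0591) or with arrays centred on their medians (0.342), in a range from 0.00385. Pgk1 is X-linked, and its 3 probe sets read within 0.01 of each other in each group mean, as sets that share target sequence would. In pCP_GC its difference was -0.12 (12.08 to 12.46, adjusted p = 0.312, and 0.0336 as a fall with arrays centred). Pgam1, phosphoglycerate mutase, read 12.32, 12.06, 12.07 and 12.06 in NGE, then 12.10, 12.30, 12.23 and 12.16 in pChePS_GC, with 11.56, 11.43 and 11.83 in pCP_GC. A fall in pCP_GC passed (log2 difference -0.52, SE 0.11, adjusted p = 0.00388), where every array lay under the other 8. Pkm, pyruvate kinase, fell by 0.67 in pCP_GC (11.57 to 11.92 against 12.33 to 12.53, adjusted p = 0.00137), and its difference in pChePS_GC was -0.21 (11.96 to 12.38, adjusted p = 0.147, and 0.0274 with arrays centred). The array does not separate the M1 and M2 splice forms of Pkm here. Ldha, which reduces pyruvate to lactate, read 13.12 to 13.46 in NGE, 13.25 to 13.37 in pChePS_GC and 13.04 to 13.37 in pCP_GC (differences 0.05 and -0.06, 95% intervals -0.17 to 0.27 and -0.29 to 0.17).

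The members for lactate export and the pyruvate switch, Slc16a3 and Pdk1, rose in pChePS_GC. Related genes outside the member list fell there. These were the transporters Slc16a1 (-0.57, limma adjusted p = 0.0149) and Slc16a7 (-4.45) and the kinases Pdk2 (-0.86) and Pdk4 (-2.39). A further kinase, Pdk3, did not pass in pChePS_GC (0.78, adjusted p = 0.0873). The falls were not particular to pChePS_GC, as the pCP_GC means also lay under NGE. They were 10.82 against 11.33 for Slc16a1, 9.42 against 12.47 for Slc16a7, 9.88 against 11.02 for Pdk2 and 8.86 against 11.65 for Pdk4. Slc16a3, the lactate exporter of glycolytic cells, read 9.80, 8.53, 9.07 and 9.04 in NGE, then 11.35, 10.21, 11.40 and 10.36 in pChePS_GC, with 9.29, 9.02 and 9.91 in pCP_GC. The pChePS_GC arrays fell into a higher pair, replicates 1 and 3, and a lower pair, and all 4 exceeded the other groups. It rose 3.29-fold there (log2 difference 1.72, SE 0.34, adjusted p = 0.00286), and its difference in pCP_GC was 0.30 (SE 0.37, adjusted p = 0.516). Pdk1, the kinase that shuts pyruvate dehydrogenase, read 9.45 to 10.06 in NGE, 9.99 to 11.01 in pChePS_GC and 9.59 to 9.76 in pCP_GC. It rose by 0.60 in pChePS_GC (adjusted p = 0.0351), with 1 array inside the NGE range. The call of Pdk1 was lost without NGE replicates 1, 3 or 4 or pChePS_GC replicates 1 or 3 (0.0556 to 0.101), with only these 2 groups fitted (0.0566) and under both other scalings (0.104 and 0.0992), in a range from 0.0136.

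Of the HIF members, Hif1a and the prolyl hydroxylases Egln1 and Egln3 passed in neither tumour group. Hif1a, the HIF alpha subunit, read 11.04 to 11.49 in NGE, 11.32 to 12.07 in pChePS_GC and 11.32 to 11.96 in pCP_GC, with differences of 0.37 (adjusted p = 0.143) and 0.39 (adjusted p = 0.147, and 0.0466 without pCP_GC replicate 1, range 0.0466 to 0.486). Egln1, the main prolyl hydroxylase that marks HIF for degradation, read 10.23 to 10.53, 9.79 to 10.92 and 9.92 to 10.08. Its pCP_GC arrays all lay under NGE (difference -0.36, adjusted p = 0.177), a gap that was called without pChePS_GC replicate 4 (0.0326), with only these 2 groups fitted (0.0192) and with arrays centred (0.0419), in a range up to 0.331. Egln3, a hydroxylase that HIF induces, was already bright in NGE at 11.58 to 12.54 and read 11.05 to 12.59 in pChePS_GC and 10.89 to 11.84 in pCP_GC, with no call in either comparison.

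Among the secreted and surface targets, Adm and Car9 varied widely between tumour arrays. Adm, which encodes the vasodilator adrenomedullin, read 9.65, 9.36, 9.08 and 9.43 in NGE, then 10.25, 8.68, 12.01 and 9.54 in pChePS_GC, with 8.45, 8.33 and 10.01 in pCP_GC. The tumour arrays thus spanned values on both sides of NGE, and the differences of 0.74 (SE 0.61, adjusted p = 0.337) and -0.46 (SE 0.66, adjusted p = 0.579) did not pass. Vegfa, the main angiogenic factor, read 10.34 to 10.81 in NGE, 11.38, 10.46, 11.91 and 10.68 in pChePS_GC and 10.30 to 10.78 in pCP_GC, again with no call (adjusted p = 0.169 and 0.971). Car9, a cell-surface carbonic anhydrase used as a hypoxia marker in many tumours but also made by normal gastric epithelium, went the other way. Its NGE arrays stood at 12.29, 12.33, 12.48 and 12.35, beside 8.52, 7.64, 11.02 and 9.0 in pChePS_GC and 10.11, 8.98 and 10.22 in pCP_GC. No tumour array reached the NGE range, and pChePS_GC replicate 3 was the nearest to it. Car9 was 9.98-fold lower in pChePS_GC (log2 difference -3.32, SE 0.58, adjusted p = 0.00131) and 6.03-fold lower in pCP_GC (-2.59, SE 0.62, adjusted p = 0.00595). The summed surface mucous markers (5 genes) were also lower in tumours. They read 16.41 to 16.45 in NGE, 13.41 to 15.30 in pChePS_GC and 15.06 to 15.68 in pCP_GC. Of the 5 genes, 4 fell in pChePS_GC and 1 in pCP_GC. Within pChePS_GC the order differed: replicate 2 had the lowest Car9 and the highest of these sums (15.30). Replicate 3 had the highest Car9 and a sum of 14.14. Of 4 mucous neck and antral markers, 2 rose in each tumour group and 1 fell in pChePS_GC. The part of lineage loss in the Car9 level was not tested.

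**Figure D2:**
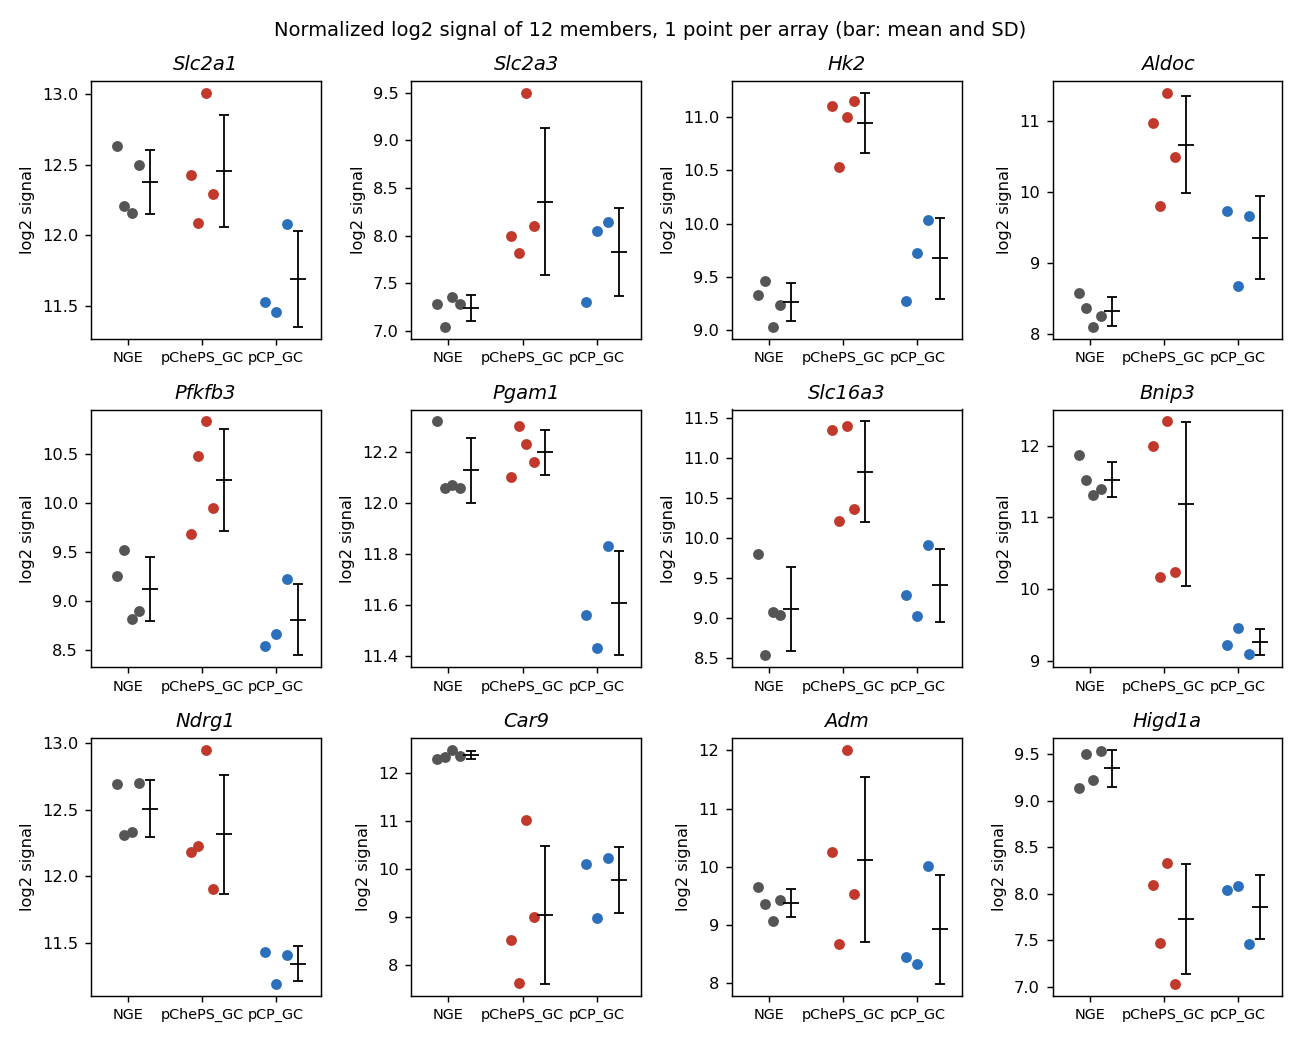
Points are single arrays of 12 members on the normalized log2 scale, with the mean and SD of each group (NGE n = 4, pChePS_GC n = 4, pCP_GC n = 3) beside them, and each panel has its own axis. For Hk2, Slc16a3 and Pfkfb3 all pChePS_GC points lie above both other groups, while Bnip3 and Ndrg1 are lowest in pCP_GC.

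Of the 2 mitochondrial targets, the arrays of Bnip3 did not overlap between the tumour groups and those of Higd1a did. Bnip3, a mitophagy receptor, read 11.87, 11.52, 11.31 and 11.40 in NGE, then 11.99, 10.17, 12.34 and 10.24 in pChePS_GC, with 9.22, 9.46 and 9.10 in pCP_GC. Replicates 1 and 3 of pChePS_GC lay above NGE, replicates 2 and 4 under it, and the pCP_GC arrays were lowest. Bnip3 was 4.82-fold lower in pCP_GC than in NGE (log2 difference -2.27, SE 0.48, adjusted p = 0.00311), and the pChePS_GC difference was -0.34 (SE 0.44, adjusted p = 0.542). Its other probe set gave -1.96 and -0.22. Higd1a, a small protein of the inner mitochondrial membrane, read 9.14, 9.50, 9.22 and 9.54 in NGE, then 8.09, 7.47, 8.33 and 7.03 in pChePS_GC, with 8.04, 8.08 and 7.46 in pCP_GC. All 7 tumour arrays lay under NGE, and the gene fell by 1.62 (SE 0.26, adjusted p = 0.000844) and 1.49 (SE 0.28, adjusted p = 0.00188).

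The collagen prolyl hydroxylases moved in opposite directions. P4ha1, which encodes a catalytic alpha subunit that HIF induces, read 10.02, 9.27, 9.06 and 9.29 in NGE, then 10.59, 10.02, 10.59 and 10.19 in pChePS_GC, with 10.04, 9.94 and 10.02 in pCP_GC. NGE replicate 1 lay among the tumour arrays and the other 3 NGE arrays were clear of them. It rose by 0.93 in pChePS_GC (SE 0.20, adjusted p = 0.00435) and by 0.59 in pCP_GC (SE 0.22, adjusted p = 0.0402), the latter lost without NGE replicates 2, 3 or 4 or any pCP_GC array (0.074 to 0.105) and with arrays centred (0.165) or quantile-normalized (0.207), in a range from 0.00429. P4ha2, the second alpha subunit gene, stood at 9.36, 9.59, 9.41 and 9.30 in NGE. Its tumour values were 8.85, 8.31, 9.29 and 8.69 in pChePS_GC and 8.46, 8.40 and 8.37 in pCP_GC, all under NGE. The gene fell by 0.63 in pChePS_GC (SE 0.17, adjusted p = 0.0144) and by 1.00 in pCP_GC (SE 0.18, adjusted p = 0.00152). All 5 fibroblast markers rose in both tumour groups, with a summed level of 10.64 to 10.83 in NGE, 13.67 to 14.80 in pChePS_GC and 13.95 to 14.79 in pCP_GC. The part of stroma in the P4ha1 level was not tested.

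Of the remaining targets, 2 fell in pCP_GC and 1 rose in pChePS_GC. Ndrg1, a stress-induced gene of differentiated epithelium, read 12.69, 12.31, 12.33 and 12.70 in NGE, then 12.18, 12.23, 12.95 and 11.90 in pChePS_GC, with 11.43, 11.19 and 11.41 in pCP_GC. The gene fell by 1.16 in pCP_GC (SE 0.22, adjusted p = 0.00162), and its difference in pChePS_GC was -0.19 (adjusted p = 0.44), which was called lower without pChePS_GC replicate 3 (0.0392, range 0.0392 to 0.828). Mxi1, a MAX-binding antagonist of MYC, fell by 0.45 in pCP_GC (9.13 to 9.27 against 9.54 to 9.76, adjusted p = 0.0196), not called without NGE replicate 1 (0.0509) or pCP_GC replicate 2 (0.0627), in a range from 0.00269. Kdm3a, a histone demethylase, rose by 0.60 in pChePS_GC (9.93 to 11.07 against 9.71 to 10.02, adjusted p = 0.0321), with an array inside the NGE range. That call was lost without NGE replicates 1, 3 or 4 or pChePS_GC replicate 3 (0.0648 to 0.0827), with only these groups fitted (0.0535) and under both other scalings (0.0983 and 0.108), in a range from 0.00553, and without pChePS_GC replicate 1 the rise was 0.39 (adjusted p = 0.0488). Ddit4, an inhibitor of mTOR signalling, read 10.03 to 10.37 in NGE, 10.64, 10.34, 12.25 and 10.74 in pChePS_GC and 10.15 to 10.98 in pCP_GC. Ankrd37, a small ankyrin-repeat protein, read 8.40 to 8.82 in NGE, 10.50, 8.20, 8.94 and 7.75 in pChePS_GC and 7.60 to 8.38 in pCP_GC, under every NGE array. Neither passed against NGE (Ddit4 adjusted p = 0.104 and 0.654, Ankrd37 0.648 and 0.332, and Ankrd37 in pCP_GC 0.0212 with only these groups fitted).

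**Figure D3:**
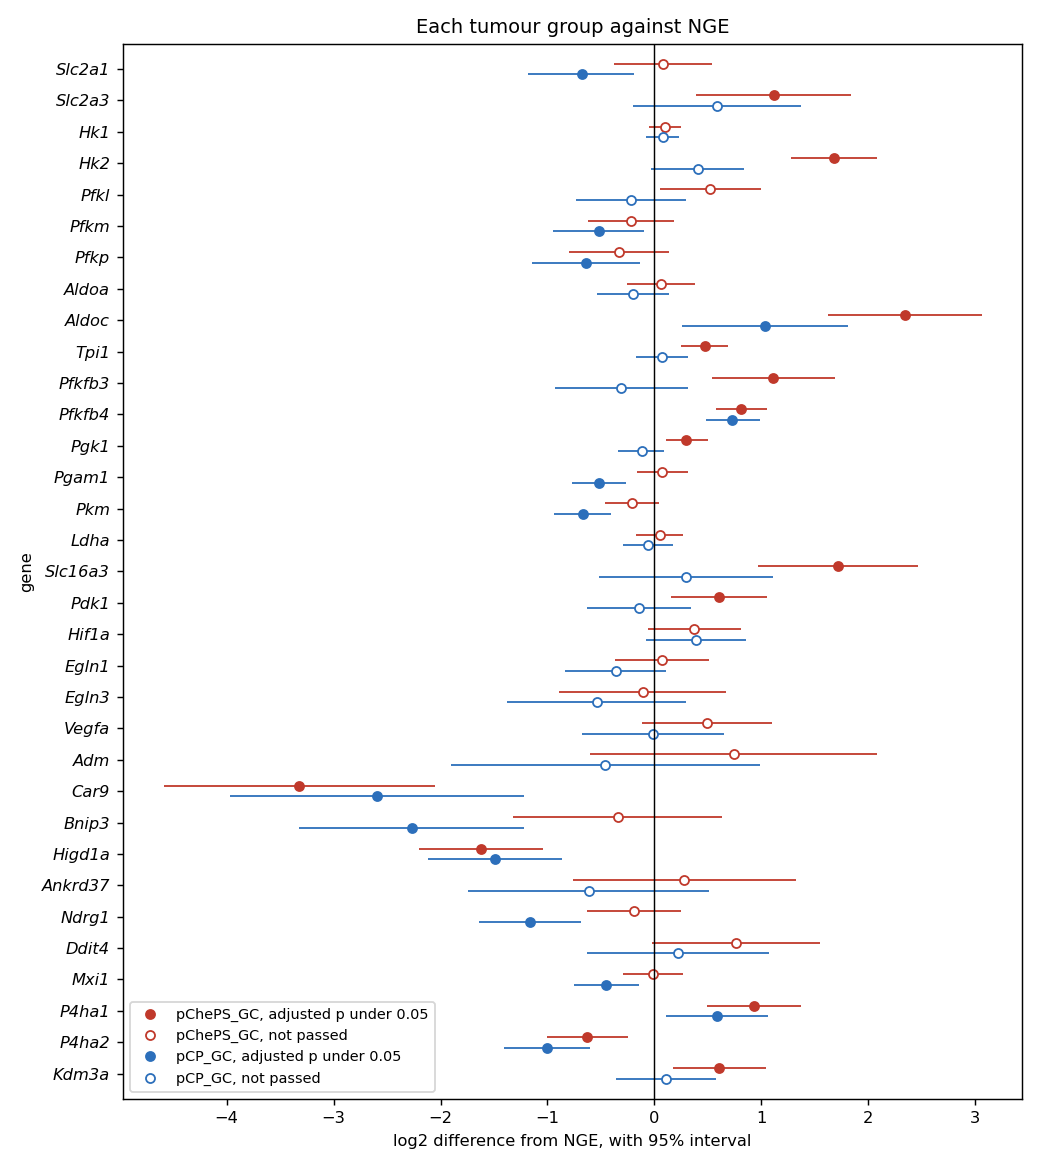
Points are log2 differences from NGE of the 33 members in pChePS_GC (red) and pCP_GC (blue), filled where the limma adjusted p was under 0.05, with 95% intervals as lines. Aldoc rose in both groups, Car9, Higd1a and P4ha2 fell in both, and Hk2, Slc16a3 and Pfkfb3 passed in pChePS_GC alone, where the difference between groups is tested in the next comparison.

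The direct comparison of the tumour genotypes asks whether the module differs between tumours with floxed Smad4 and tumours with both Cdh1 alleles floxed. In 30 of 33 members the mean was higher in pChePS_GC, among them all 18 glycolysis genes (Pfkfb4 turned to -0.01 without pChePS_GC replicate 4), where 57.8% of all genes had a difference above 0. The median difference of the members was 0.46, beside 0.04 for all genes. Single calls were few: 1 member, Hk2, passed as higher and 0 as lower, where 0.115% of all genes passed as higher and 0.251% as lower. At an unadjusted limma p under 0.05 there were 15 members, all higher in pChePS_GC, where 9.72% of all genes were higher and 6.81% lower at that p. The arrays of 14 members did not overlap, with pChePS_GC above pCP_GC in each, against 9.50% of all genes higher and 4.40% lower without overlap. These counts describe a list and do not test it.

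Hk2 was 2.42-fold higher in pChePS_GC (log2 difference 1.28, SE 0.20, 95% interval 0.84 to 1.71, adjusted p = 0.0293). Permuting the 7 arrays exactly (35 arrangements, two-sided) gave an unadjusted p = 0.0286, the smallest this design allows. Tpi1, Pfkfb3, Pgk1 and Pgam1 had the same permutation p, so it does not set Hk2 apart. The lowest pChePS_GC array (10.53) exceeded the highest pCP_GC array (10.03). The adjusted p passed the threshold without pChePS_GC replicates 2, 3 or 4 or pCP_GC replicates 2 or 3, and not without NGE replicate 1, 2, 3 or 4 (0.0618, 0.0509, 0.0525 and 0.069), pChePS_GC replicate 1 (0.0534) or pCP_GC replicate 1 (0.0797). It was 0.214 with only the tumour arrays fitted and 0.136 with the replicate number as a block, in a range from 0.0159. The NGE arrays enter only through the estimate of spread.

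Several further members had a gap of similar size without passing. Bnip3 was 3.8-fold higher in pChePS_GC (1.93, SE 0.48, 95% interval 0.87 to 2.98, adjusted p = 0.119). Slc16a3 and Pfkfb3 were 2.68-fold higher each (1.42, SE 0.37, adjusted p = 0.129, and 1.42, SE 0.28, adjusted p = 0.0711). Pfkfb3 was called without pChePS_GC replicate 1 (0.0456) and with array weights (0.0335), in a range up to 0.282. Aldoc was 2.47-fold higher (1.30, SE 0.35, adjusted p = 0.143), and Ndrg1 1.96-fold (0.97, SE 0.22, adjusted p = 0.0938). Among the bright enzymes the gaps were smaller and the spread too: Pgam1 differed by 0.59 (SE 0.11, adjusted p = 0.0667, and 0.0483 with quantile normalization and 0.0496 with array weights, in a range up to 0.275), Pkm by 0.46 (SE 0.12, adjusted p = 0.131), Pgk1 by 0.43 (SE 0.10, adjusted p = 0.102) and Tpi1 by 0.40 (SE 0.11, adjusted p = 0.139). Slc2a1, Pdk1, Pfkl and Mxi1 complete the 14, with differences of 0.76, 0.75, 0.74 and 0.44 and adjusted p of 0.167, 0.167, 0.181 and 0.181. Adm differed by 1.19 with an interval from -0.26 to 2.64, the widest of any member with a difference above 0.

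At the other end, the interval allowed little difference for some members. That of Hk1 ran from -0.13 to 0.18, of Ldha from -0.12 to 0.34 and of Pfkfb4 from -0.18 to 0.33. The interval of Hk1 holds for the probe set used. Its second probe set differed by 0.42, and over the alternatives the Hk1 difference ran from 0.01 to 0.22. The 3 members with a mean under that of pCP_GC were Hif1a (-0.01, -0.48 to 0.46), Higd1a (-0.13, -0.75 to 0.50) and Car9 (-0.73, -2.10 to 0.65). Of the markers of other cell types, 0 of 5 neutrophil, 0 of 5 macrophage, 0 of 5 endothelium and 0 of 5 fibroblast genes passed between genotypes, and Pga5, a chief cell pepsinogen that was lower in pChePS_GC (7.54 against 9.47, adjusted p = 0.0466), was the only marker of the 14 lists that did. Neutrophil markers summed to 11.64 to 12.34 in pChePS_GC and 10.46 to 11.71 in pCP_GC, and the arrays of S100a9 and Cxcr2 did not overlap, with pChePS_GC higher (1.25, adjusted p = 0.144, and 0.74, adjusted p = 0.149). The gaps were larger in surface mucous genes, lower in pChePS_GC: Muc5ac differed by -3.0 (adjusted p = 0.136) and Gkn1 by -2.06 (0.242), both without overlap, and Psca by -2.51 (0.147). Tff2, of mucous neck and antral cells, differed by -0.65 (0.111), also without overlap. The part of these cell types in the member differences was not tested.

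**Figure D4:**
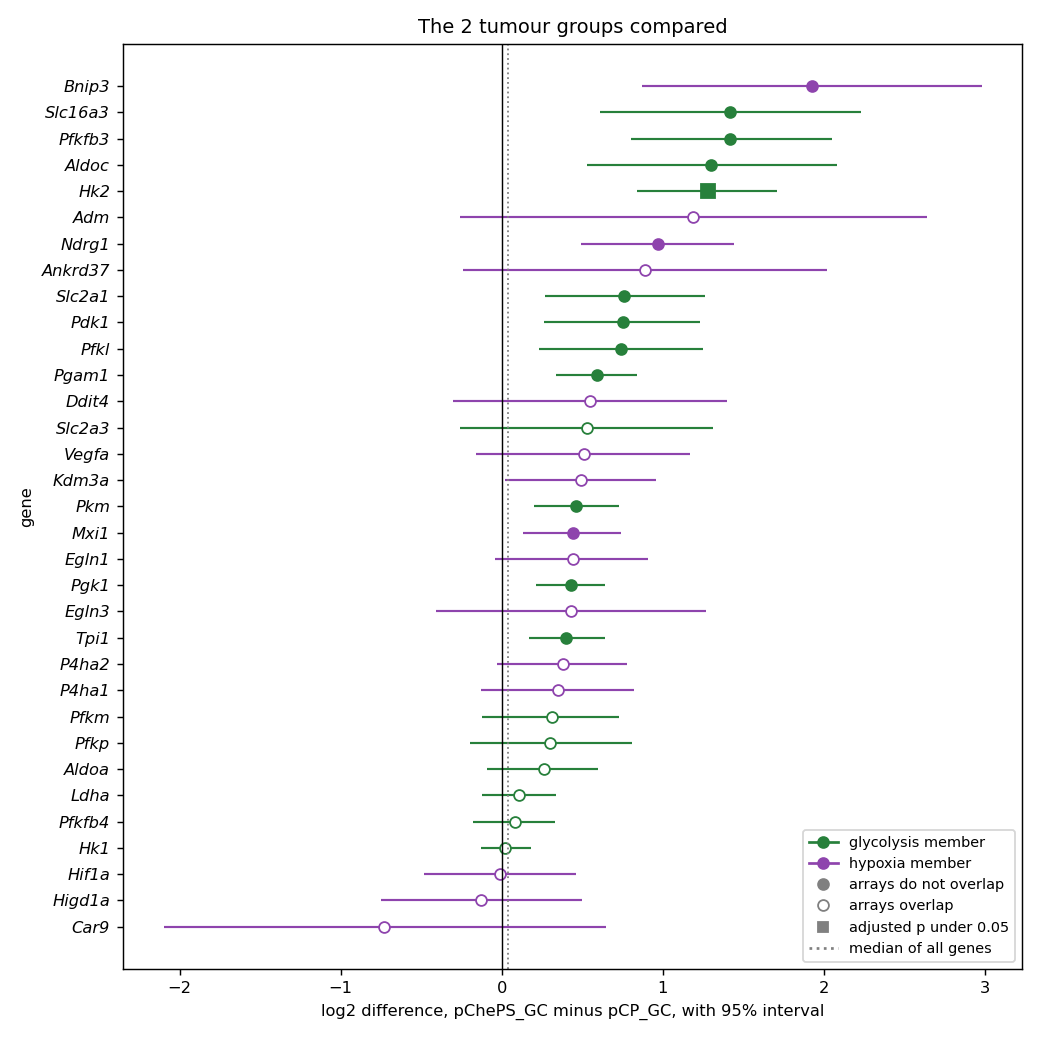
Each member is placed at its log2 difference, pChePS_GC minus pCP_GC, with its 95% interval, in green for glycolysis and purple for hypoxia genes. Filled symbols mark the 14 members whose arrays do not overlap, the square is Hk2 (the member that passed), and the dotted line is the median of all genes at 0.04.

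Within pChePS_GC the members varied more from array to array than genes did in general. Their median SD was 0.44, against 0.18 for all genes, while in NGE it was 0.17 against 0.14 and in pCP_GC 0.19 against 0.15. Replicate 3 held the highest of the 7 tumour values for 18 of 33 members (54.5%, against 16.6% of all genes) and replicate 1 for 11 (33.3%, against 15.5%). Replicate 4 was highest for 3 (9.09%, against 22.5% of all genes) and replicate 2 for 1 (3.03%, against 10.1%). No pCP_GC array was highest for any member, where pCP_GC replicates 1, 2 and 3 were highest for 10.1%, 13.2% and 8.81% of all genes. The lowest value belonged to pCP_GC replicate 2 for 16 members (48.5%, against 24.5% of all genes). That array also had the highest parietal sum among tumour arrays (12.89, against 9.56 to 11.03 in the others). Its pan-epithelial sum (15.06) was the lowest of all arrays. The part of its cell mixture in these levels was not tested.

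The hypoxia genes split the pChePS_GC arrays into 2 pairs. Their median deviation from the NGE mean was 0.46 and 0.44 in pChePS_GC replicates 1 and 3, and -0.28 and -0.60 in replicates 2 and 4. In the pCP_GC arrays it was -0.37, -0.97 and -0.36. The glycolysis genes deviated by 0.47, 0.26, 0.48 and 0.16 in pChePS_GC and by -0.05, -0.28 and 0.05 in pCP_GC, so for them every pChePS_GC array lay above every pCP_GC array. Endothelial markers were also highest in pChePS_GC replicate 3 (summed level 13.45, against 12.34 to 12.65 in the other arrays of its group and 12.18 to 12.73 in pCP_GC), as were those of fibroblasts (14.80, against 13.67 to 14.79 in the other tumour arrays) and smooth muscle (14.57, against 12.32 to 14.26). Replicate 1, the other high array, had the highest neutrophil sum (12.34, against 10.46 to 11.90) and the lowest surface mucous sum (13.41, against 14.14 to 15.68). pCP_GC replicate 2, lowest on the hypoxia genes (-0.97), came next to pChePS_GC replicate 3 in the fibroblast (14.79) and endothelial (12.73) sums. Its smooth muscle sum was 14.23, and that of pChePS_GC replicate 2, also low on the hypoxia genes (-0.28), was 14.26. The part of these cell types in the hypoxia gene levels was not tested. Without pChePS_GC replicate 3 the comparison of genotypes had a median member difference of 0.37 with 30 members above 0, and 14 members did not overlap. Without replicate 1 the values were 0.38, 31 and 14, where 13.3% of all genes then did not overlap in that direction, and 11.5% without replicate 3.

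**Figure D5:**
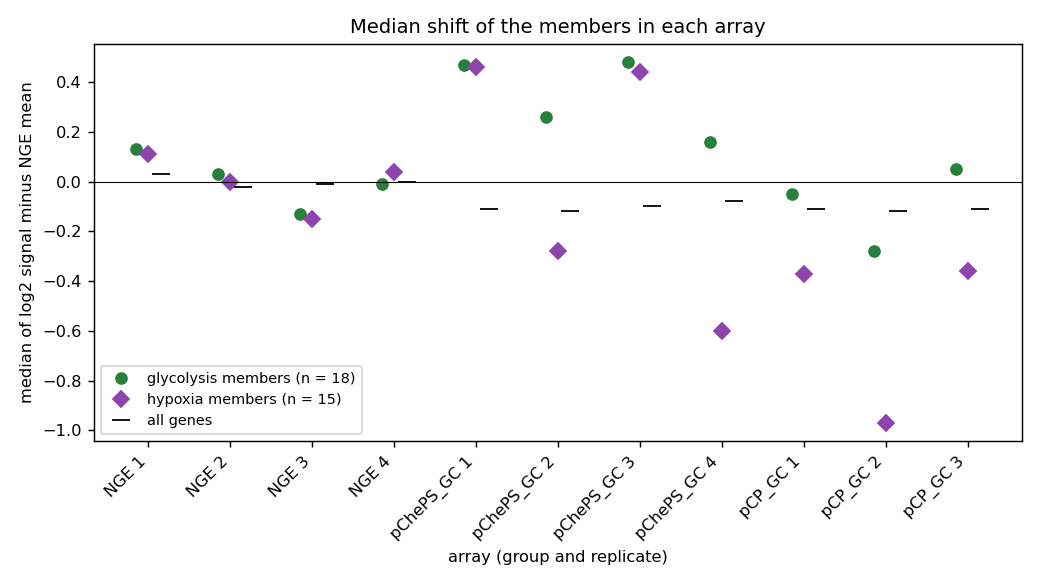
For each array the median of (log2 signal minus NGE mean) is drawn over the 18 glycolysis members, the 15 hypoxia members and all genes. Replicates 1 and 3 of pChePS_GC are high on both, replicates 2 and 4 are high on glycolysis (0.26 and 0.16) and low on hypoxia (-0.28 and -0.60), and pCP_GC arrays are low on hypoxia.

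Other genes of the pathway gave the setting. Of 65 further genes listed, 57 were measured. In pChePS_GC 18 rose (31.6%, against 18.7% of all genes) and 11 fell (19.3%, against 23.4%). In pCP_GC 14 rose (24.6%, against 20.0%) and 15 fell (26.3%, against 31.8%), shares near those of all genes. Between genotypes 0 passed in the limma fit, and 14 had an unadjusted p under 0.05, of which 13 were higher in pChePS_GC (beside 9.72% of all genes). Further HIF-regulated genes rose in 16 of 24 cases in pChePS_GC (0 fell) and in 12 of 24 in pCP_GC (1 fell). The largest rises in both were of Lox, a collagen cross-linking oxidase (4.36 and 3.60), Plod2, a collagen lysyl hydroxylase (3.19 and 2.81), and Plin2, a lipid droplet coat protein (2.54 and 1.82). Plin2 read 8.65 to 8.79 in NGE, 11.09 to 11.51 in pChePS_GC and 10.19 to 10.75 in pCP_GC, 3 ranges without overlap, and its difference between genotypes was 0.72 (SE 0.14, adjusted p = 0.0711). Lox and Plod2 are made by fibroblasts, whose markers all rose in both groups, and the part of fibroblasts in these rises was not tested. Plod2 in NGE lay under the receptor level.

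Of 7 genes of pyruvate entry into mitochondria 4 fell in both groups (57.1%), where 23.4% of all genes fell in pChePS_GC and 31.8% in pCP_GC. They were Mpc1, a subunit of the mitochondrial pyruvate carrier, Pdhb, a subunit of pyruvate dehydrogenase, and Pdk2 and Pdk4, kinases that switch that enzyme off. Pdk4 fell by 2.39 in pChePS_GC and by 2.79 in pCP_GC. Pdk3, a further kinase of the enzyme, rose by 1.07 in pCP_GC (adjusted p = 0.0325). Of 15 other isozymes 6 fell (40%) and 1 rose (6.67%) in pChePS_GC and 8 fell (53.3%) and 1 rose (6.67%) in pCP_GC. Of all genes 18.7% rose in pChePS_GC and 20.0% in pCP_GC. The largest falls were of Slc16a7, a transporter of pyruvate and lactate (-4.45 and -3.04), and Ldhb, the lactate dehydrogenase subunit of oxidative tissue (-2.47 and -2.85). Ldhb read 11.13 to 11.88 in NGE, 8.04 to 9.67 in pChePS_GC and 8.05 to 9.67 in pCP_GC, beside Ldha, which passed in neither group. Slc2a4, the insulin-responsive glucose transporter, fell by 2.05 and 2.26. Parietal cells are rich in mitochondria, and all 5 of their markers fell in both groups, and the part of their loss in these falls was not tested. Of the 5 pentose phosphate genes 1 fell in each group (20%), a share under that of all genes. In the HIF system Vhl, the adaptor that targets HIF for degradation, rose by 0.46 in pChePS_GC (adjusted p = 0.00254), while Egln2 fell by 0.30 in pCP_GC (adjusted p = 0.00813).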

How the data were processed

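Each of 11 total RNA samples went onto 1 Affymetrix array, per the labels' protocols. The authors deposited normalized log2 signals for every probe set, a unit inferred from the range of the values (2.88 to 14.56). The submitters' processing notes name Affymetrix Expression Console, with version, algorithm and build not given in the sources used here. Normalization and background steps set the level of dim probe sets most.

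The platform annotation gave 1 symbol for 21789 of 35556 probe sets, several for 1621 and none for 12146. All 33 measured members matched RefSeq by gene number. Group means over the 11 arrays were estimated in limma 3.58.1 (R 4.3.3, functions lmFit and eBayes), which was tested on simulated data, with Benjamini-Hochberg adjustment over 19938 genes and a threshold of 0.05. Tests are two-sided. The number of arrays limits the precision. Values in every array are given for members that passed between genotypes, had the 6 largest differences there, passed on opposite sides of NGE (0 members) or had the 4 largest rises or falls against NGE in either tumour group, and for a few others chosen after their values were seen. The members and lists were chosen with earlier results of these data known. Alternatives changed the groups fitted, scaling, variance prior, dim-gene filter, probe set summary, array weights, replicate block, thresholds and arrays, each left out in turn.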

Additional observations from a re-analysis of the deposited data

Results flagged for a closer look

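In 66 groups of 4 arrays (33 members in NGE and in pChePS_GC), 2 had an array far from the other 3 by Dixon's criterion, and chance flags about 1 in 20. Slc2a3 read 9.50 in pChePS_GC replicate 3, against 7.82 to 8.10 in the others. Pgam1 read 12.32 in NGE replicate 1, against 12.06 to 12.07 in the others.

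Hk2 differed between the tumour genotypes (pChePS_GC minus pCP_GC, 1.28 on the log2 scale, limma adjusted p = 0.0293, range over the alternatives 0.0159 to 0.214), and was higher in 4 of 4 pChePS_GC arrays than in any pCP_GC array.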

How the results depend on the processing

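Counts of members that passed changed with the settings as follows. Against NGE, 11 rose in pChePS_GC (7 at an adjusted p under 0.01, 5 at 2-fold or more, 8 to 12 with an array left out) and 3 fell (2 under 0.01, 2 at 2-fold or more, 3 to 4 with an array left out). In pCP_GC 3 rose (1 with arrays centred, with quantile normalization, under 0.01 or at 2-fold, and 1 to 4 with an array left out) and 11 fell (7 under 0.01, 5 at 2-fold, 7 to 12 with an array left out). Between genotypes 1 passed as higher (0 with only these groups fitted, under 0.01 or with the replicate block, 2 with quantile normalization, 3 with array weights, 0 to 1 with an array left out) and 0 as lower in every setting. For single members, 60 of 1881 values under the alternatives lost a call and 20 gained one in the same direction. The sign changed under at least 1 alternative for 18 of 99 differences, 0 of them among the 29 that had passed. Of these 18, Hk1 in pCP_GC passed with its sign changed (-0.24 with the mean of its probe sets).

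Equal replicate numbers showed no clear pairing: deviations of same-numbered arrays correlated at -0.15 to 0.16 (pChePS_GC and NGE), 0.05 to 0.10 (pCP_GC and NGE) and -0.07 to 0.15 (both tumour groups). Arrays of unequal number correlated at -0.18 to 0.11, -0.2 to 0.16 and -0.38 to 0.32. With so few pairs and such a spread, the correlations cannot decide whether same-numbered samples were handled together. With the replicate block, 2 calls were lost, of Pfkp in pCP_GC and of Hk2 between genotypes. The cause of these changes was not tested, and the number of arrays limits all of them.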
